A study of Mus musculus with 8 samples.

Results

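The digestive enzyme genes of pancreatic acinar cells were followed in RNA sequencing of mouse pancreatic islets. The set comprised 10 genes chosen by symbol (Prss2, Try5, Ctrb1, Cela2a, Cpa1, Cpb1, Pnlip, Clps, Cel and Zg16), all of which were among the 14126 genes measured and all of which passed the filter on low values. All 10 are called enzyme genes here for brevity, although Clps encodes a colipase and Zg16 a lectin-like granule protein. The islets came from mice of the NOD/ShiLtJ strain, which is prone to autoimmune diabetes, at 7 weeks of age. The KO label (genotype IRE1αβ-/-, loss of the stress sensor IRE1α from beta cells) covered 4 libraries, and the WT label (IRE1αfl/fl, carrying the floxed gene) covered 4. Tamoxifen, prepared at 10 mg/ml and injected over 5 days to switch on Cre recombinase, was noted for KO and WT mice alike, and neither the promoter behind the recombinase nor whether WT mice carried it is stated. Enzymes had been used to free the islets, which were then separated from exocrine tissue on Histopaque-1077 and hand-picked. The comparison of KO with WT libraries asked how islet transcription differed with the label, and for these genes how much exocrine RNA each library held.

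Acinar cells make up most of the exocrine pancreas and surround the islets. They store digestive enzymes as inactive precursors, or zymogens, in secretory granules and release them into the ducts when cholecystokinin or nerves stimulate them. Transcription of the enzyme genes is driven in these cells by the PTF1 complex, which contains PTF1A and RBPJL, together with NR5A2 and the factor encoded by Bhlha15, also called MIST1. Islet endocrine cells are not known for making these enzymes, so their messenger RNAs are widely read as a sign of exocrine material in an islet preparation. In bulk RNA a different number of acinar cells and a different amount of enzyme RNA per cell cannot be told apart.

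The values are the deposited normalized values, rounded to whole numbers, and they summed to between 32024139 and 34858983 per library. Such sums come after normalization, so the sequencing depth cannot be read from them. The beta cell marker list of 12 genes, which includes both insulin genes, took 7.54% to 10.4% of the total in KO libraries and 16.0% to 17.8% in WT libraries. Ern1, which encodes IRE1α, averaged 7187.8 ± 194.6 in KO and 4958.8 ± 488.0 in WT libraries (SD, n = 4 each). Its value covers the whole gene and not the floxed exons alone, so it does not check the labels, and every direction given here rests on the labels.

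Several enzyme genes belong to families of close relatives, and for the trypsinogens this bears on how far the values of single genes can be trusted. Prss2 (chromosome 6, 41521787 to 41525079, plus strand) and Try5 (chromosome 6, 41311233 to 41316841, minus strand) lie in one trypsinogen cluster with Try4 and Try10 (GENCODE M21, GRCm38). Bases 37 to 108 of each coding sequence are shown with capitals at the positions that differ from Prss2.
Prss2: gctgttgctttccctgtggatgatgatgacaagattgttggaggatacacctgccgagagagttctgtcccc
Try5: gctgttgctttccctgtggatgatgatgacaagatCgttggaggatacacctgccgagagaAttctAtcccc
Try4: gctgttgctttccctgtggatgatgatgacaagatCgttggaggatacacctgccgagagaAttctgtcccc
Try10: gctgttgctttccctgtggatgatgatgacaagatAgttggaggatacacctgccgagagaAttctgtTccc
Over all 738 coding bases Try5 and Try4 were 97.4% identical, with 1 identical run of 274 bases, whereas Try5 and Prss2 were 90.4% identical with a longest identical run of 62 bases. The division of reads between Try5 and Try4 is therefore uncertain, and that between either of them and Prss2 less so.

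The upstream sequences of members are shown as background on these genes. Whether they bear on the differences between libraries was not tested. Of the 10 genes, 7 had an entry in the RefSeq promoter table (GRCm38.p6). The 250 bases before each start were searched on both strands for 5 motifs. The first was TTTCCCA, a sequence bound by RBPJ family proteins, which reads TGGGAAA on the other strand. The second was the E-box CACCTG, of the kind bound by PTF1A and other helix-loop-helix factors, whose complement begins with CAGG. The third was the palindromic E-box CAGCTG. The fourth was AAGGTCA, of the kind bound by NR5A2, whose complement begins with TGAC. The last was TATAAA, the core promoter element. No 2 of their occurrences overlap in the stretches printed. The 150 bases just before the start, in the direction of transcription, are given with these motifs in capitals for the 4 genes that hold TTTCCCA or its complement there.
Prss2, chr6:41521626-41521775, plus strand: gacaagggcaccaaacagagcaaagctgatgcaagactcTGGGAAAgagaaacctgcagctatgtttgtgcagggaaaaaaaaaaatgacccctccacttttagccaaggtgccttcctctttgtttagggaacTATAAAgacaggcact
Cela2a, chr4:141826006-141826155, minus strand: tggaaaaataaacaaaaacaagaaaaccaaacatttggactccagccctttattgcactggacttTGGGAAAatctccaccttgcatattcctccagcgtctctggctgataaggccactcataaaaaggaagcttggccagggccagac
Cpa1, chr6:30639068-30639217, plus strand: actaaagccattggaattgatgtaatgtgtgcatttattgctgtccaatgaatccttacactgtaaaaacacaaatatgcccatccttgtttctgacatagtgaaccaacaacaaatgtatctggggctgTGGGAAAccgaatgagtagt
Cel, chr2:28563404-28563553, minus strand: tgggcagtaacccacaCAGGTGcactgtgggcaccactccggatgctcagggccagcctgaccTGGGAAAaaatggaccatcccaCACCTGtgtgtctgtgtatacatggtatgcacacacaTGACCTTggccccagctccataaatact
TTTCCCA or its complement was present in the 250 upstream bases of 5 of the 7 members (Cpa1, Cela2a, Ctrb1, Cel and Prss2), against 6.82% of all 32851 promoters in the table. CACCTG was present in 4 of the 7 against 17.2% of all, CAGCTG in 1 (Ctrb1) against 13.0%, AAGGTCA in 1 (Cel) against 4.08%, and TATAAA in 2 (Pnlip and Prss2) against 12.4%. These are matches of letters, with no measurement of binding.

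The 10 enzyme genes together took 0.430%, 1.03%, 1.27% and 0.667% of the total in KO replicates 1 to 4. The WT shares were 0.160%, 0.0655%, 0.791% and 0.378%. The mean share was 0.849 ± 0.373% in KO and 0.349 ± 0.323% in WT libraries (SD, n = 4 each). The groups overlapped, since WT replicate 3 lay above KO replicates 1 and 4. The lowest library, WT replicate 2, held less than WT replicate 1 and far less than the other 6.

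Among the proteases, Prss2, which encodes a trypsinogen, the zymogen that activates the other pancreatic zymogens once it has itself been cleaved in the gut, had values of 11243, 28126, 38817 and 20602 in KO replicates 1 to 4. The WT values, in the same order of replicates, were 4938, 2446, 24190 and 10384. KO replicates 3 and 2 were the highest and WT replicates 2 and 1 the lowest, while WT replicate 3 lay above KO replicates 1 and 4. The log2 difference of KO minus WT was 1.60 ± 0.66 (SE), with an adjusted p = 0.119 by limma-trend, which did not pass the threshold of 0.05.

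Try5, the other trypsinogen, had 10093, 15876, 21673 and 9630 in KO libraries. In WT libraries it had 2920, 4005, 10908 and 5816. KO replicates 2 and 3 were above every WT library, and KO replicates 1 and 4 lay just under WT replicate 3. Try5 was the one member to pass, with a log2 difference of 1.37 ± 0.41 (adjusted p = 0.0425, limma-trend) and KO higher in 4 of 4 replicate numbers. The call ended when any single library other than WT replicate 3 was left out (highest adjusted p = 0.104), in libraries 3 and 4 alone (adjusted p = 0.157) and by limma without the trend.

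Ctrb1, encoding chymotrypsinogen B1 (chromosome 8, 111686519 to 111691010), had 16282, 32131, 35316 and 15265 in KO libraries. In WT libraries it had 4839, 3695, 29737 and 14850. The KO minus WT difference of 1.29 ± 0.63 on the log2 scale was the smallest among the 10 genes and did not pass (adjusted p = 0.182, limma-trend). KO replicate 4 and WT replicate 4 were almost level for this gene.

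Cela2a, encoding an elastase that cuts proteins next to hydrophobic residues (chromosome 4, 141814962 to 141826160), had 15646, 40614, 41950 and 18986 in KO libraries. In WT libraries it had 6255, 1614, 34054 and 15332. WT replicate 3 lay above KO replicates 1 and 4, and the log2 difference of 1.65 ± 0.83 did not pass, its 95% interval running from -0.22 to 3.51 (adjusted p = 0.193, limma-trend). The annotated span of Cela2a overlaps that of Ctrc, another chymotrypsin gene on the same strand, and that of Casp9 on the other strand. Casp9 had values between 278 and 483 in the 8 libraries.

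Cpa1 and Cpb1 encode carboxypeptidases, which trim amino acids from the ends of peptides. Cpa1 (chromosome 6, 30639218 to 30645363) had 14696, 35880, 47575 and 25079 in KO libraries, against 5569, 2075, 28334 and 14457 in WT libraries. Cpb1 (chromosome 3, 20248264 to 20275733) had 15669, 35455, 49074 and 25901 in KO libraries, against 6248, 1786, 25792 and 13009 in WT libraries. Although the genes lie on different chromosomes, they were nearly level in every library, and the Cpb1 to Cpa1 ratio stayed between 0.861 and 1.12. Their log2 differences were 1.76 ± 0.73 (adjusted p = 0.122) and 1.89 ± 0.73 (adjusted p = 0.0998), and neither passed in limma-trend.

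The fat-digesting members were Pnlip, encoding the main pancreatic lipase, Clps, encoding the colipase that anchors it on fat droplets, and Cel, encoding a lipase activated by bile salts. Pnlip (chromosome 19, 58652498 to 58681788) had 32732, 86758, 109985 and 53307 in KO libraries, against 13831, 3038, 60097 and 31104 in WT libraries. Its spread from lowest to highest library, 36.2-fold, was the widest of the 10 genes. The KO minus WT difference was 1.93 ± 0.82 on the log2 scale (adjusted p = 0.129, limma-trend) and did not pass.

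Clps (chromosome 17, 28558149 to 28560766) had 4394, 12278, 15092 and 7152 in KO libraries, against 1530, 455, 8382 and 4703 in WT libraries. For this gene, alone among the 10, WT replicate 4 lay above KO replicate 1. Cel (chromosome 2, 28555795 to 28563403) had 21835, 49923, 64304 and 32718 in KO libraries, against 8252, 2668, 38859 and 19570 in WT libraries. Differences of 1.93 ± 0.83 for Clps and 1.77 ± 0.74 for Cel on the log2 scale did not pass (adjusted p = 0.131 and adjusted p = 0.121, limma-trend).

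Zg16, which encodes a lectin-like protein of the zymogen granule membrane (chromosome 7, 127050156 to 127087328), had 2914, 8118, 9459 and 4905 in KO libraries. In WT libraries it had 1373, 341, 5667 and 2593. It followed the enzymes in the order of its libraries, and its log2 difference of 1.83 ± 0.77 did not pass (adjusted p = 0.124, limma-trend).

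**Figure D1:**
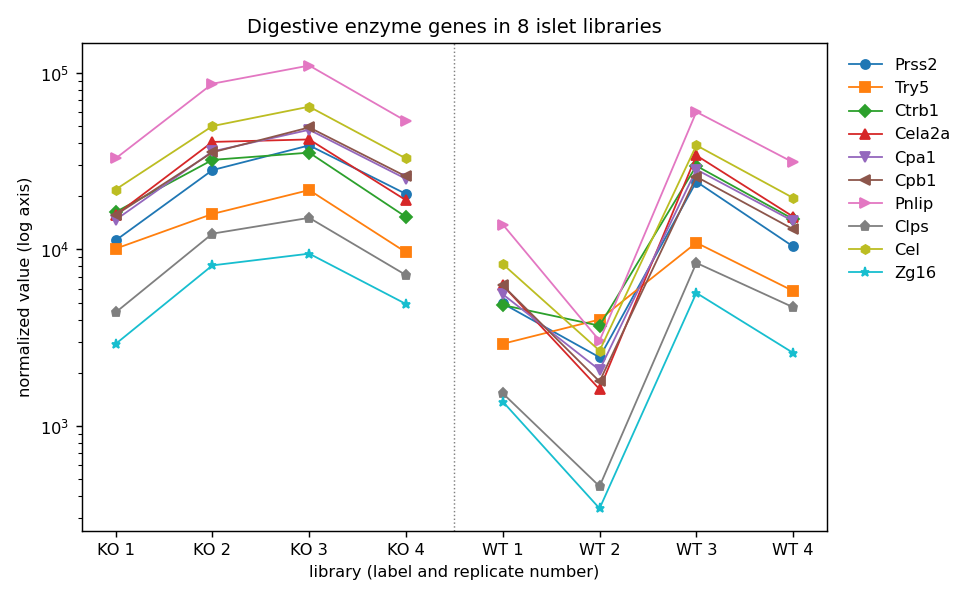
Normalized values (log axis) of the 10 genes in the 4 libraries labelled KO and the 4 labelled WT. Each symbol is 1 library, and a line joins the values of 1 gene within a label only to guide the eye. KO replicate 3 was the highest library for all 10 genes, and WT replicate 2 was the lowest for all but Try5.

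Compared per kilobase of the longest annotated protein-coding transcript, Pnlip had the highest mean level, 47542 ± 23118 per kilobase in KO and 18169 ± 16744 in WT libraries (SD, n = 4 each). Prss2 followed in KO libraries with 30303 ± 14325, against 12871 ± 11922 in WT libraries. Ctrb1 had 28187 ± 11905 and Cela2a 27382 ± 13004 per kilobase in KO libraries, against 15126 ± 13737 and 13377 ± 13402 in WT libraries. Cel, Cpa1, Try5, Clps, Cpb1 and Zg16 came after them in that order in both groups, down to 8781 ± 4125 in KO and 3449 ± 3191 in WT libraries for Zg16. Each gene's distance to the next mean in the KO order was smaller than its own SD between libraries. Within single libraries Pnlip was the highest per kilobase in 7 of 8, and Zg16 the lowest in 8 of 8. The exception was WT replicate 2, where Try5 stood highest at 5000.0 per kilobase.

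The 10 genes varied between libraries largely together, Try5 less closely than the others. Ranked from high to low, 6 of them (Prss2, Cela2a, Cpa1, Pnlip, Cel and Zg16) had an identical order of the 8 libraries, namely KO replicates 3 and 2, WT replicate 3, KO replicates 4 and 1, and WT replicates 4, 1 and 2. The other 4 orders differed from it in places next to each other. Over the 8 libraries the SD of the log2 level was between 0.98 (Try5) and 1.68 (Clps), with a median of 1.53. The median gene with a mean value of at least 50 had an SD of 0.24, and 600 of 13085 such genes, or 4.59%, had an SD above that of Try5.

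Ratios between members within a library were mostly far steadier than their levels, but those with Try5 were not. Over 45 pairs of genes the SD of the log2 ratio had a median of 0.27 and ran from 0.08 to 0.99. In the 9 pairs with Try5 it ran from 0.49 to 0.99, while the level of Try5 itself had an SD of 0.98. In the 36 pairs without Try5 it ran from 0.08 to 0.65. A single profile shared by the 10 genes held 95.5% of their summed squared deviations from their own means. With the mean over the 8 libraries taken on the log2 scale, this shared profile was 1.02, 2.39, 2.99 and 1.46 times the mean across the KO libraries. Across the WT libraries it was 0.384, 0.149, 1.83 and 0.905 times the mean. These figures are descriptions over 8 libraries, which share a genotype label in groups of 4 and a replicate number in pairs.

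Departures from the shared profile were largest in WT replicate 2. In that library Try5 stood 1.68 above the profile on the log2 scale, Ctrb1 0.75 above and Prss2 0.35 above, while Pnlip stood at -0.68 and Clps at -0.54. The 3 genes above the profile there encode the trypsinogens and chymotrypsinogen of the set. Ctrl, a chymotrypsin-like gene outside the set, did not share the departure of Ctrb1. Its ratio to Ctrb1 was 0.173 in WT replicate 2, the lowest of the 8 libraries, and from 0.357 to 0.506 in the others. The Try5 to Prss2 ratio was 0.898, 0.564, 0.558 and 0.467 in KO libraries, against 0.591, 1.64, 0.451 and 0.56 in WT libraries. Try4, the near copy of Try5, did not share the departure: its ratio to Prss2 was 0.605 in WT replicate 2 and ran from 0.487 to 1.07 over all libraries. Try4 and Try5 added together were 1.97, 1.3, 1.18 and 0.954 times Prss2 in KO libraries, against 1.44, 2.24, 1.21 and 1.5 times in WT libraries. How reads were divided between these copies was not tested.

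**Figure D2:**
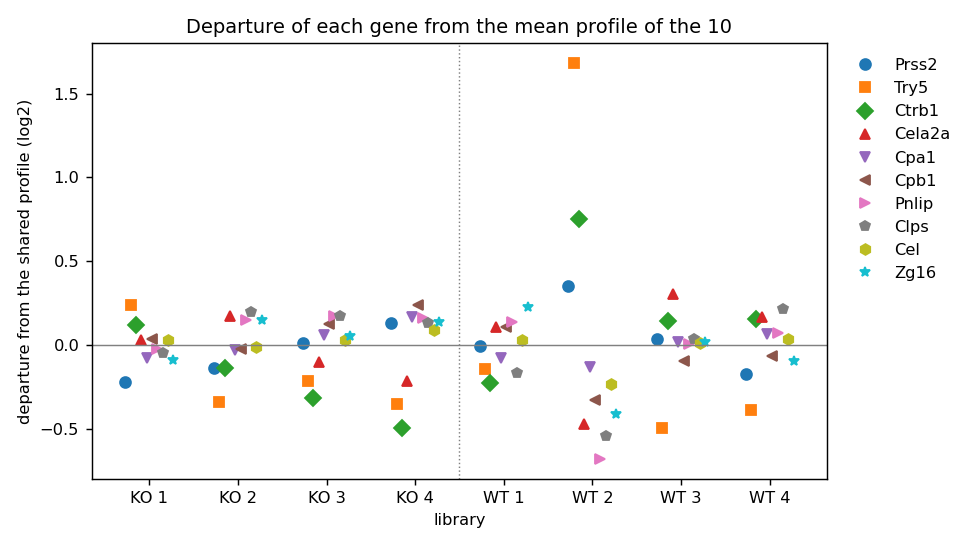
Departure of each gene's log2(value + 1), centred over the 8 libraries, from the mean of the 10 centred genes, by library (KO left, WT right; 1 symbol per gene and library). WT replicate 2 holds the widest scatter, with Try5 at 1.68 and Pnlip at -0.68.

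Set against each other by label, the 10 genes had a median log2 difference of 1.77, between 1.29 and 1.93, while the median over all 14121 genes tested was -0.0008. Of the 10 genes 1 (Try5) passed at an adjusted p under 0.05, where by the same rule 11.1% of all tested genes were higher and 9.81% lower in KO libraries, so the share of members that passed was near the background. At an unadjusted p under 0.05 the count was 8 of 10, without Ctrb1 and Cela2a, where 18.3% of all genes were higher and 16.7% lower. The 95% intervals were wide, the highest bound being 3.80 (Clps) and the lowest -0.22 (Cela2a). All 10 genes overlapped between the groups, where 13.6% of all tested genes had every KO library above every WT library. That share is small, so the overlap says little about these genes in particular. In the authors' deposited table, a likelihood ratio test in edgeR, all 10 were higher with an FDR under 0.05, as were 16.2% of all its genes with 13.1% lower, with log2 fold changes from 1.34 to 1.92 and a highest FDR of 0.0223.

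**Figure D3:**
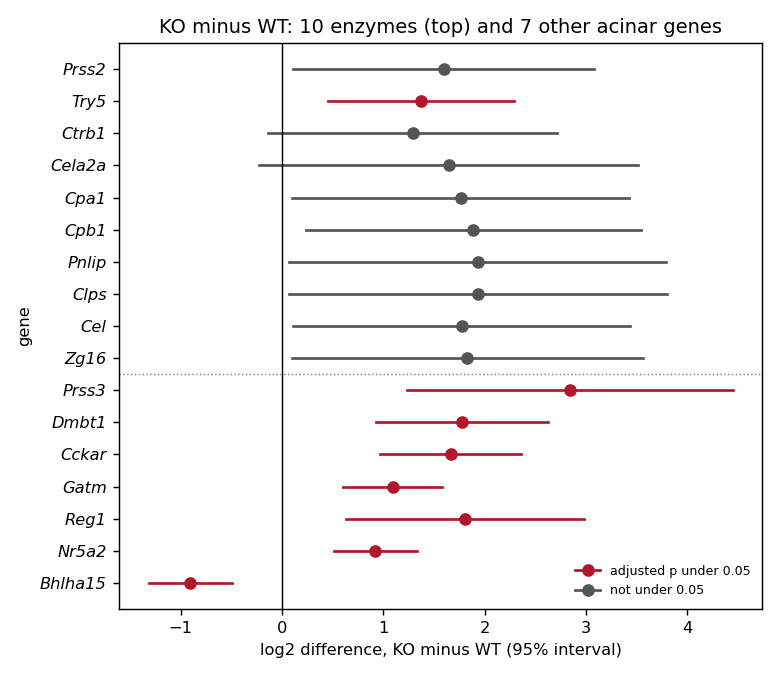
Log2 difference of KO minus WT with its 95% interval from limma-trend on 8 libraries, for the 10 genes (top) and the 7 other acinar genes that passed (bottom); red marks an adjusted p under 0.05. The 10 enzyme genes lie between 1.29 and 1.93 with wide intervals, and Bhlha15 lies below 0 at -0.91.

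Within replicate numbers the direction was the same but the size was not. KO lay above WT in all 4 replicate numbers for all 10 genes, as it did for 24.9% of all tested genes. The mean over the 10 genes, taken on the log2 scale, was 2.64-fold in replicate number 1, 16.1-fold in number 2, 1.63-fold in number 3 and 1.61-fold in number 4. In number 1 the genes lay between 1.09 (Zg16) and 1.79 (Try5) on the log2 scale, and in number 2 between 1.99 (Try5) and 4.84 (Pnlip). In number 3 they lay between 0.25 (Ctrb1) and 0.99 (Try5), and in number 4 between 0.04 (Ctrb1) and 0.99 (Cpb1). The large difference in number 2 set KO replicate 2, the second highest library, against WT replicate 2, the lowest.

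With the replicate number as a block 3 of the 10 genes passed (Cpb1, Prss2 and Try5, with an adjusted p = 0.0449, 0.0390 and 0.00609, limma-trend), where 14.2% of all genes passed as higher and 11.7% as lower. With a term for the library set (numbers 1 and 2, or 3 and 4) 8 passed, where 17.0% of all genes were higher and 14.9% lower. The labels do not record this division of the libraries, and no reason for it apart from these values is given. P-values from the library sets, as a term or alone, are therefore descriptive only. On the 4 libraries of numbers 1 and 2 alone all 10 passed as higher, against 12.2% of all genes higher and 10.8% lower, with a median log2 difference of 2.82 (highest adjusted p = 0.0309, limma-trend). On the 4 libraries of numbers 3 and 4 alone the median was 0.80, with adjusted p-values from 0.0987 (Cpb1) to 0.826 (Ctrb1). There 0 of 10 passed in limma-trend, where 11.4% of all genes passed as higher and 11.4% as lower. At an unadjusted p under 0.05 the count was 1 (Cpb1), where 19.0% of all genes were higher. Tested directly, the difference between these sets was negative for all 10 genes, with a median of -2.04 on the log2 scale, and passed for none (lowest adjusted p = 0.135, limma-trend), though 5 genes had an unadjusted p under 0.05. Over all genes, in either direction, 0.0991% passed that test and 18.8% had an unadjusted p under 0.05.

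Among the 8 single libraries left out in turn, WT replicates 2 and 3 moved the median difference most. Without WT replicate 2 it was 1.09, and 0 of 10 passed in limma-trend, where 7.97% of all genes were higher and 6.11% lower. At an unadjusted p under 0.05 the count was 2 (Cpb1 and Try5), where 15.8% of all genes were higher. Without WT replicate 3 the median was 2.36 and 7 of 10 passed, where 8.82% of all genes were higher and 7.31% lower. All 10 differences kept their sign under every left-out library.

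**Figure D4:**
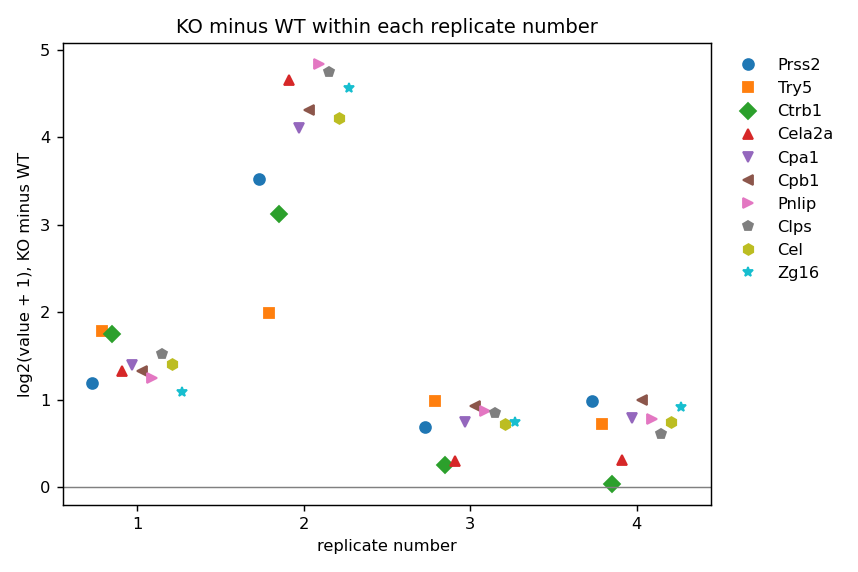
Difference in log2(value + 1) of the KO library minus the WT library with the same replicate number, 1 symbol per gene. All 40 points lie above 0; those of number 2 reach 4.84 and those of numbers 3 and 4 stay at or below 0.99.

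Other exocrine genes were read from 3 further lists, of which 35 of 45 genes were measured. Ptf1a and Prss1 were not analysed here. Of the 35 genes 6 rose in KO libraries, 1 fell and 28 did not pass, with a median log2 difference of 1.57, where 11.1% of all genes rose and 9.81% fell. With the replicate block 15 were higher and 2 lower, where 14.2% of all genes were higher and 11.7% lower. Most of them followed the enzyme profile. The 10 genes outside the set whose centred log2 levels over 8 libraries came closest to it, out of 12218 candidates, were all on these lists, among them Cela3b, Ctrl, Gp2, Serpini2, Rnase1, Ctrc, Pdia2, Pnliprp2 and Cuzd1. Their root mean square difference from the profile was between 0.10 (Cela3b) and 0.21 (Cuzd1) on the log2 scale, within the range of the members themselves, 0.09 to 0.67. Cela3b, an elastase gene, had 6180, 14944, 17568 and 7602 in KO libraries, against 2336, 924, 12340 and 5732 in WT libraries. Ctrl, encoding a chymotrypsin-like enzyme, had 6042, 13756, 15385 and 7728 in KO libraries, against 2002, 641, 10617 and 5363 in WT libraries. Neither passed (adjusted p = 0.156 and adjusted p = 0.135, limma-trend).

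Pnliprp1, a lipase-related gene, averaged 20045 ± 9631 in KO and 8017 ± 6660 in WT libraries (SD, n = 4 each), with an adjusted p = 0.0942 by limma-trend. Try4 averaged 16748 ± 6759 in KO and 8470 ± 7499 in WT libraries (adjusted p = 0.173, limma-trend). Pnliprp1 passed in limma-trend once the replicate number was a block (adjusted p = 0.0205). Amy2a5, an amylase gene with near-identical copies, had 612, 1742, 2017 and 1079 in KO libraries, against 737, 145, 2902 and 568 in WT libraries. KO lay above WT in 2 of 4 replicate numbers for Amy2a5, and its log2 difference of 0.93 did not pass (adjusted p = 0.447, limma-trend). Amy1 and Amy2b, further amylase entries, were named after their values were seen, and GENCODE M21 marks Amy2b as an unprocessed pseudogene. How reads were divided between the amylase copies was not tested. Amy1 and Amy2b were higher in KO in 4 of 4 replicate numbers. They lay closer to the enzyme profile, with root mean square differences of 0.41 and 0.35, against 0.59 for Amy2a5. Their log2 differences of 1.56 for Amy1 (adjusted p = 0.238) and 1.62 for Amy2b (adjusted p = 0.216) did not pass in limma-trend.

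Of the listed genes that passed, Reg1 came closest to the enzyme profile, with a root mean square difference of 0.55, and the other 6 lay between 0.91 and 1.76 from it. Cckar, the receptor through which cholecystokinin stimulates acinar secretion in rodents, averaged 352.3 ± 60.8 in KO and 117.5 ± 49.3 in WT libraries (log2 difference of 1.67 ± 0.31, adjusted p = 0.00604, limma-trend). Dmbt1, encoding a mucosal scavenger protein, had 26943, 13994, 13867 and 7323 in KO libraries, against 3354, 3080, 6596 and 4104 in WT libraries. Its highest library was KO replicate 1, the lowest KO library for most enzymes (log2 difference of 1.77 ± 0.38, adjusted p = 0.0110, limma-trend, and adjusted p = 0.0641 in libraries 3 and 4 alone). Gatm, an enzyme gene of creatine synthesis, averaged 895.8 ± 211.7 in KO and 420.8 ± 103.7 in WT libraries, a log2 difference of 1.09 (adjusted p = 0.00797, limma-trend).

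Prss3, a minor trypsinogen gene, had 116, 171, 77 and 199 in KO libraries, against 19, 3, 50 and 28 in WT libraries. The groups did not overlap for Prss3, as for 13.6% of all tested genes that were higher in KO, and its rise (log2 difference of 2.84, adjusted p = 0.0222, limma-trend) lost the call without KO replicate 1, 2 or 4 (highest adjusted p = 0.0636). Reg1, encoding a secreted lectin-like protein of acinar cells, averaged 6297 ± 3116 in KO and 2014 ± 1547 in WT libraries (log2 difference of 1.81, adjusted p = 0.0376, limma-trend). That call was lost without KO replicate 2, 3 or 4 or WT replicate 1, 2 or 4 (highest adjusted p = 0.0957), and by limma without the trend.

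The 4 measured transcription factor genes went in different directions, 1 higher, 1 lower and 2 not passing. Bhlha15, which is also expressed in other secretory cells, fell, with 653, 1078, 807 and 809 in KO libraries, against 1721, 1957, 1283 and 1316 in WT libraries (log2 difference of -0.91 ± 0.18, adjusted p = 0.00854, limma-trend). Every KO library lay below every WT library. Nr5a2, encoding a nuclear receptor of acinar cells, averaged 143.0 ± 23.7 in KO and 74.8 ± 10.4 in WT libraries and was higher by 0.92 ± 0.18 on the log2 scale (adjusted p = 0.00817, limma-trend, and adjusted p = 0.0510 in libraries 1 and 2 alone). Rbpjl, encoding the acinar subunit of PTF1, had low values of 57, 74, 81 and 54 in KO libraries, against 15, 31, 68 and 35 in WT libraries, and did not pass (adjusted p = 0.126, limma-trend). Xbp1, encoding the factor activated through splicing by IRE1α, averaged 9022 ± 1834 in KO and 10996 ± 978 in WT libraries (adjusted p = 0.168, limma-trend).

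**Figure D5:**
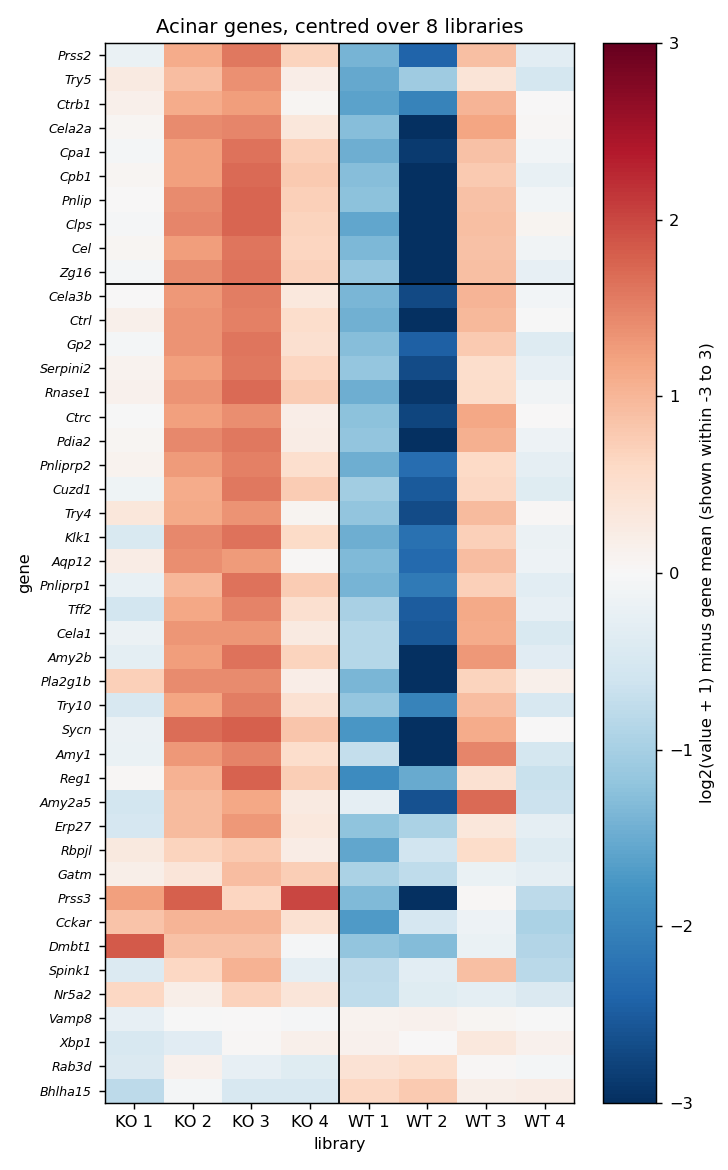
Log2(value + 1) minus each gene's mean over the 8 libraries for the 10 enzyme genes (above the line) and other acinar list genes (below it, ordered by closeness to the enzyme profile); colours are cut at -3 and 3. Rows near the top share a pattern with WT replicate 2 lowest and KO replicate 3 among the highest, while Bhlha15 at the bottom is lower in KO.

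Markers of other pancreatic cells differed in which libraries were high. The 16 ductal markers took 0.147%, 0.0754%, 0.102% and 0.0989% of the total in KO replicates 1 to 4, against 0.0453%, 0.0517%, 0.0953% and 0.0752% in WT replicates 1 to 4. KO replicate 1 held the highest ductal and the lowest enzyme share among KO libraries. With the replicate block 6 of the 16 genes were higher, where 14.2% of all genes were. In libraries 1 and 2 alone 8 were higher, where 12.2% of all genes were. In libraries 3 and 4 alone 5 were higher and 1 lower, where 11.4% of all genes were higher and 11.4% lower. In the main test 4 of the 16 genes rose, where 11.1% of all genes did. Among the 4 were Spp1, encoding osteopontin, with 11448 ± 5656 in KO and 1237 ± 287 in WT libraries (log2 difference of 3.12, adjusted p = 0.000337, limma-trend), and Muc1, encoding a mucin of duct surfaces (log2 difference of 1.91, adjusted p = 0.0369, limma-trend). The Muc1 call was lost under the replicate block (adjusted p = 0.0522), in libraries 3 and 4 alone (adjusted p = 0.105), and without KO replicate 2 or 3 or WT replicate 1 or 2 (highest adjusted p = 0.0900, limma-trend), and by limma without the trend. The other 2, Slc4a4 and Tspan8, are named to complete the count. The 12 stellate markers took 0.0654%, 0.0639%, 0.101% and 0.110% in KO libraries, against 0.0394%, 0.0605%, 0.0470% and 0.0612% in WT libraries, with 2 of 12 higher (Lum and Timp1, named to complete the count). The stellate count was 8 of 12 with the replicate block, where 14.2% of all genes were higher, and 10 of 12 in libraries 3 and 4 alone, where 11.4% were. The beta cell list took a lower share of every KO library than of any WT library, and the 8 alpha cell markers a higher one, 5.72% to 7.77% in KO and 1.16% to 3.0% in WT libraries. The part of these shifts in the enzyme differences was not tested. With totals that left out all listed acinar genes the median log2 difference of the 10 genes was 1.82 and the median over all genes 0.05. With totals that left out hormone and mitochondrially encoded genes they were 1.81 and 0.04.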

How the data were processed

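The design text gives 4 mice per group, so each library was read as 1 animal. STAR 2.5.3a, RSEM 1.2.31, edgeR 3.16.15 and bcl2fastq 2.20 are named, with GRCm38.p5, per the submitters' processing notes. No settings or strandedness of the kit are stated there. The per-library columns deposited by the authors are a score, normalized counts rounded to whole numbers, with no fixed unit. The authors also deposited a log2 fold change, a log2 CPM, a likelihood ratio score, a p-value and an FDR for each of 14126 genes. Sequencing depth is not given with these values, so no counting interval is printed, and 4 libraries a group set the precision.

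Values were tested as log2(value + 1) with limma-trend (limma 3.58.1, R 4.3.3), keeping 14121 genes that reached a value of 1 in 4 or more libraries, with p-values adjusted over them all by Benjamini-Hochberg and a threshold of 0.05. Such fold changes understate those of low genes. No count model was run, since the values are not raw counts. The procedure was tested on simulated data with 1 dispersion for all genes. That gave less spread between libraries than the 10 genes had, so the simulation cannot speak for genes this variable. Members, gene lists and the naming rule (the 10 genes, 14 fixed acinar and target genes, the largest called changes per list and the 10 closest profiles) were chosen with earlier results of these data known; Slc4a4, Tspan8, Lum, Timp1, Casp9, Amy1, Amy2b and Rab3d fall outside the rule, and 1 gene that the rule names is not reported here. Gene positions and transcript lengths came from GENCODE M21 (GRCm38) and upstream sequences from RefSeq (GRCm38.p6).

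KO and WT libraries carry the same numbers, 1 to 4. Deviations of same-numbered libraries from their group means correlated across 13081 genes with r of 0.327, 0.583, 0.664 and 0.381, all over 0.1. On this basis the samples were taken as paired by number in the replicate block and the within-number differences. Correlations between libraries of different numbers were not taken, so a likeness shared by several numbers cannot be told from pairing. The main test did not use the pairing. Genes are not independent replicates, and the labels record no shared litter or batch. For the mean log2 level of the enzyme genes these deviations had opposite signs in number 2 (0.41 in KO, -1.90 in WT) and number 4 (-0.31 and 0.71). They had the same sign in number 1 (-0.83 and -0.53) and number 3 (0.73 and 1.72). Alternatives were other pseudocounts, no filter, other totals, the replicate block, libraries 1 and 2 against 3 and 4 as a term or alone, limma without the trend, the authors' table, and leaving out each library. The division into libraries 1 and 2 and libraries 3 and 4 has no basis in the labels.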

Additional observations from a re-analysis of the deposited data

How the results depend on the processing

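All 190 alternative values of the 10 genes (19 alternatives each) kept a positive log2 difference, from 0.14 to 3.14. The count of members that passed, 1 of 10, was 3 with the replicate block, 8 with a term for the library set (numbers 1 and 2, or 3 and 4), 10 in libraries 1 and 2 alone and 10 in the authors' deposited table. It was 0 in libraries 3 and 4 alone (1 at an unadjusted p under 0.05) and 0 by limma without the trend (2 at an unadjusted p under 0.05), and from 0 to 7 when 1 library was left out (1 to 10 at an unadjusted p under 0.05). The other pseudocounts, totals and the absence of a filter left it at 1. At an unadjusted p under 0.05 in limma-trend, 19.0% of all genes were higher in libraries 3 and 4 alone and 15.8% without WT replicate 2. That share was not taken for limma without the trend or for the other left-out libraries. The 6 higher and 1 lower of the other acinar genes were 15 and 2 with the replicate block (the lower ones Bhlha15 and Rab3d, Rab3d being named after its values were seen), 18 and 3 with the library term, 22 and 3 in libraries 1 and 2 alone and 27 and 2 in the authors' deposited table. They were 5 and 1 in libraries 3 and 4 alone, and the same by limma without the trend. They ranged from 4 to 20 higher and from 1 to 2 lower when 1 library was left out. Of all genes 14.2% were higher and 11.7% lower with the replicate block, and 17.0% and 14.9% with the library term. The shares were 12.2% and 10.8% in libraries 1 and 2 alone and 11.4% and 11.4% in libraries 3 and 4 alone. In the authors' deposited table they were 16.2% and 13.1%. The cause of these shifts was not tested, beyond the smaller number of libraries where some were left out. Over all genes 1562 were higher and 1385 lower. With the library term they were 2400 and 2102, with totals free of hormone and mitochondrial genes 1746 and 1017, and with totals free of acinar genes 1792 and 1013. Leaving out 1 library gave 1121 to 1684 higher and 863 (without WT replicate 2) to 1597 lower. The mean share of the 10 genes in KO libraries, 0.849%, was 1.33% of totals free of hormone and mitochondrial genes, and from 0.708% to 0.988% when 1 library was left out, against 0.201% to 0.443% in WT libraries. The median SD of log2 ratios lay between 0.21 and 0.30 when 1 library was left out.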
